A study of Homo sapiens with 24 samples.

Results

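WEE1, PKMYT1, CHEK1, CHEK2, ATR, ATM, CDC25A, CDC25B, CDC25C and FBXO5 are 10 genes that hold cells back from mitosis or push them into it. They were taken as the probe sets of the array table whose only gene symbol is one of these names. This gave 32 of 49372 probe sets, and all 10 genes were among the 16175 genes tested of 18132 with a probe set. WEE1, ATR and FBXO5 had 1 probe set each. A further probe set that names CHEK2 together with other genes was not used.

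RNA of U2-OS and SJSA-1, 2 established human osteosarcoma lines, was hybridised to Affymetrix PrimeView arrays, which read each transcript with groups of short probes. Each line had a DMSO control group and groups given THZ2 at 25, 100 or 400 nM, all for 6 h, with 3 arrays in each of the 8 groups and 24 arrays in all. THZ2 binds CDK7 covalently and blocks it. CDK7 phosphorylates RNA polymerase II at the start of transcription and also activates cell-cycle kinases. The labels do not say whether the 3 arrays of a group came from separate cultures, so the p-values measure the spread between these arrays, which may be technical. Their number limits the precision. In these bulk extracts, fewer cells in a phase of the cell cycle and less transcript per cell cannot be told apart.

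Entry into mitosis is driven by CDK1 with cyclin B. The kinases WEE1 and PKMYT1 (MYT1) put inhibitory phosphates on CDK1, and the phosphatases CDC25A, CDC25B and CDC25C take them off. ATR answers single-stranded DNA at stalled forks and signals mainly through CHEK1, ATM answers double-strand breaks and signals mainly through CHEK2, and both effector kinases restrain the CDC25 phosphatases. FBXO5 (EMI1) inhibits the anaphase-promoting complex (APC/C), a ubiquitin ligase, and so keeps cyclins stable until mitosis.

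Promoters are shown for CDC25A and FBXO5, whose transcripts fell in both lines, and for CDC25B, which fell in one line and was higher in the other at the highest dose. Each is the 250 bases before the most upstream RefSeq start (GRCh38.p14), 5′ to 3′ on the gene's strand. Capitals mark matches, on either strand, to the CCAAT box (CCAAT), the E2F site (TTTGGCGC or TTTCCCGC), the CHR element (TTTGAA) and the TATA box (TATAAA), motifs known from promoters of cell-cycle genes or of genes at large. The motifs share no overlap here.
CDC25A promoter, chr3:48188418-48188667, minus strand: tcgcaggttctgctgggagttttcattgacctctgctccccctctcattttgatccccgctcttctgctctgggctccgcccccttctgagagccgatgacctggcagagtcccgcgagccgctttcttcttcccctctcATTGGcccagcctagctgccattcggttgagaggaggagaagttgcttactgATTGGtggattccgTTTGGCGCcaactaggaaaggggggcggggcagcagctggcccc
FBXO5 promoter, chr6:152983580-152983829, minus strand: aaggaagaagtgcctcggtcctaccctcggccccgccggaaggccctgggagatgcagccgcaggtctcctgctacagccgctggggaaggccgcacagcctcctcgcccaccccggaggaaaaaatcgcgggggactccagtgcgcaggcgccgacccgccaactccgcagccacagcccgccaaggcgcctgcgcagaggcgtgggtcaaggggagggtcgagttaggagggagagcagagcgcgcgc
CDC25B promoter, chr20:3786701-3786950, plus strand: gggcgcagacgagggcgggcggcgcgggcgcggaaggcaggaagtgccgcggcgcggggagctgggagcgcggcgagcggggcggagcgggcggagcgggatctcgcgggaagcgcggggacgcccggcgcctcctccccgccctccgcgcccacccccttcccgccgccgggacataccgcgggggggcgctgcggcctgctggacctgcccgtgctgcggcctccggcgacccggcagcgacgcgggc
The CDC25A window held 2 CCAAT boxes on the opposite strand, 110 and 58 bases before the start, and 1 E2F match 44 bases before it. The FBXO5 and CDC25B windows held none of these letters. Of 35114 windows of the same length in the RefSeq table, 32% held CCAAT, 1.93% an E2F match, 13.3% a CHR element and 10.7% a TATA box. The table held 8 of the 10 genes. Among the others, CHEK1 had 1 CCAAT box, CHEK2 had 3, ATM had 1 CCAAT box and 1 CHR element, and ATR and CDC25C had no match. The CHEK1 and CHEK2 windows did not lie before the outermost start of the gene. That of CHEK1 ended at chr11:125626223, with the gene starting at 125625136 on the plus strand. That of CHEK2 began at chr22:28741821, with the gene ending at 28741834 on the minus strand.

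Values below are deposited intensities, a brightness on a linear scale, and log2 changes of the intensity plus 16. A change was called when its limma p-value, adjusted by Benjamini-Hochberg over all genes tested in that comparison, was under 0.05. Identical values shared between arrays divided the table into 3 sets, taken here as normalization sets: 9 U2-OS arrays (all those without the 400 nM dose, medians 33.5 to 34.5), the 3 U2-OS arrays with 400 nM (36.6 to 37.3) and the 12 SJSA-1 arrays (23.4 to 25.5). The 400 nM dose in U2-OS and its normalization set therefore cannot be told apart, and neither can line and set for levels in DMSO. In SJSA-1 100% of the values lay on whole hundredths of the log2 scale, against 1.79% to 2.28% in U2-OS arrays. Values rounded this way coincide between arrays whether or not these were normalized together. Whether the 12 SJSA-1 arrays form 1 normalization set therefore cannot be told from shared values. At 400 nM the median change over all genes was 0.15 for U2-OS and 0.10 for SJSA-1, and at 100 nM it was 0.06 for each. The 24 probe sets of the poly-A spike-ins, bacterial transcripts that can be added to RNA before labelling, rose against DMSO by 0.36 and 0.31 at 100 and 400 nM in U2-OS, and by 0.44 and 0.94 in SJSA-1. The last value leans on 1 array: the 3 SJSA-1 arrays with 400 nM had spike-in means of 7.84, 8.90 and 7.38 on the log2 scale, and without the second the rise was 0.51. The SJSA-1 DMSO arrays were spread as well, at 6.74, 7.15 and 7.39, the third above the third array with 400 nM. Both SJSA-1 rises therefore also depend on the DMSO arrays, and spike-in centring without one of these was not run. These spike-in values are on the log2 of the intensity plus 16. Spike-in centring used the log2 of the intensity alone, so the shift it applied is not the rise given here. With each array centred on the spike-ins, the median over all genes became -0.32 and -0.15 in U2-OS and -0.23 and -0.50 in SJSA-1. Calls over all genes in U2-OS then went from 3199 higher and 3598 lower to 101 and 7010 at 100 nM, and from 7826 and 4036 to 1837 and 5302 at 400 nM. Those in SJSA-1 went from 3940 higher and 4055 lower to 83 and 4847 at 100 nM, and from 6700 and 4034 to 11 and 9954 at 400 nM. With the second SJSA-1 array with 400 nM also left out, which was tried after seeing the data, those at 400 nM were 46 and 6371, with a median of -0.23. Centring each array on its median gave 5814 higher and 3793 lower in SJSA-1 at 100 nM. Of the lineage markers, VIM (6608 to 8464 as group means) and SPARC (2690 to 4699) were bright, while IBSP (5.42 to 8.12) lay under the detection filter of 12.73. One label names nervous tissue as the source of RNA, which the other labels do not. Of 8 nervous tissue markers on the table, 6 to 7 in U2-OS groups and 4 to 5 in SJSA-1 groups lay at or over the filter, among them GFAP (35.7 to 96.3), SLC17A7 (20.8 to 40.7) and, in U2-OS, NEFL (up to 621), while AQP4 (4.09 to 7.28) lay under it in every group. Of 6 blood markers 2 to 4 lay at or over it, with HBB at 48.2 to 90.1 and PTPRC (3.39 to 6.51) under it in every group, as did 4 to 6 of 6 epithelial markers. The summed nervous tissue markers, 8 of 9 on the table, ran from 632 to 678 in U2-OS with DMSO and from 867 to 964 with 400 nM, and from 138 to 146 and from 180 to 206 in SJSA-1. The 6 epithelial markers summed to 272 to 292 and 464 to 469 in the same U2-OS groups and to 135 to 169 and 238 to 262 in SJSA-1, and the 6 measured of 8 blood markers to 136 to 145 and 162 to 186, and to 97.8 to 110 and 135 to 151. Their part in the results was not tested.

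The 400 nM dose removed most of the signal of WEE1, FBXO5 and CDC25A in both lines, a kinase that restrains CDK1, the inhibitor of the APC/C and a phosphatase that activates CDK1. In U2-OS 4 of the 10 genes were lower at 400 nM (WEE1, FBXO5, CDC25A, CHEK2) and 1 was higher (CDC25B), where 25% of all genes tested were called lower and 48.4% higher. In SJSA-1 6 were lower (WEE1, FBXO5, CDC25A, CDC25B, CDC25C, ATR) and 1 was higher (PKMYT1), against 24.9% and 41.4% of all genes. At 100 nM 3 genes fell in U2-OS (FBXO5, ATR, ATM) and none rose, against 22.2% lower and 19.8% higher over all genes. In SJSA-1 6 genes fell at 100 nM (WEE1, FBXO5, CDC25A, CDC25B, CDC25C, ATR) and none rose, against 25.1% and 24.4%. FBXO5 and ATR thus fell in both lines. With spike-in centring the counts at 100 nM lay closer, at 6 lower in U2-OS and 8 lower in SJSA-1. At 25 nM no gene of the set was called in U2-OS, where 0.0556% of all genes were called lower and 0.0247% higher, although CDC25A had an unadjusted limma p of 0.0455. CDC25B alone was called lower in SJSA-1 at 25 nM, against 6.28% lower and 1.97% higher over all genes. The median change of the 10 genes was -0.71 at 100 nM and -0.57 at 400 nM in SJSA-1, and -0.08 and -0.14 in U2-OS, where joint quantile normalization (0.01) and the mean of probe sets (0.02) turned the first.

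**Figure D1:**
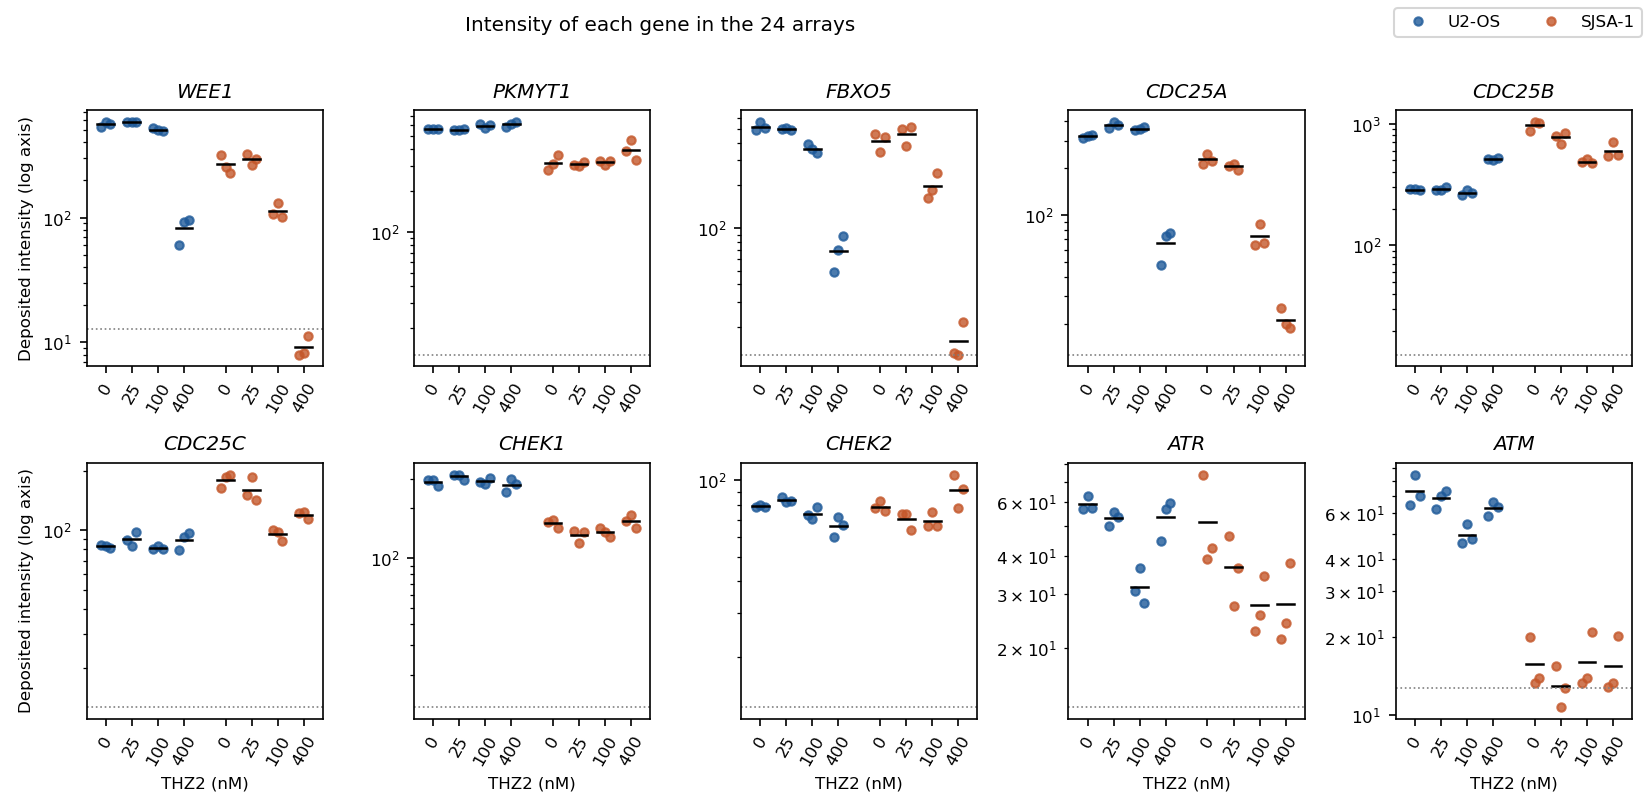
Deposited intensity (log axis) of the 10 genes in every array, by THZ2 dose in nM, with U2-OS in blue on the left of each panel and SJSA-1 in orange on the right. Points are arrays, bars are the means of 3 arrays and the dotted line is the detection filter of 12.73. WEE1, FBXO5 and CDC25A drop at 400 nM in both lines, and WEE1 in SJSA-1 ends under the filter.

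WEE1, the nuclear kinase that restrains CDK1, read 534, 583 and 559 in the 3 U2-OS arrays with DMSO and 59.98, 92.8 and 96.3 with 400 nM. The 25 nM arrays stood at 578 to 580 and the 100 nM arrays at 490 to 520, under the DMSO arrays. All 3 arrays with 400 nM lay far under the lowest of the other U2-OS arrays. The mean fell from 559 ± 24.6 to 83.0 ± 20.0 (SD, n = 3), which is 14.9% of the DMSO mean, a log2 change of -2.56 (SE 0.12, limma adjusted p = 1.6e-16). At 100 nM the change in U2-OS was -0.15 (95% interval -0.40 to 0.10, limma adjusted p = 0.323), and -0.63 and called with spike-in centring. In SJSA-1 WEE1 read 317, 254 and 228 with DMSO, 263 to 322 with 25 nM, 108, 130 and 102 with 100 nM, and 8.0, 8.2 and 11.3 with 400 nM. The 100 nM arrays all lay under the DMSO arrays, and the 400 nM arrays all lay under the filter of 12.73. WEE1 in SJSA-1 fell to 42.5% of its DMSO mean at 100 nM, a log2 change of -1.12 (SE 0.12, limma adjusted p = 8.08e-09). At 400 nM it was at least 20.9-fold lower, from the DMSO mean of 266 and with the dim arrays set to 12.73, and their measured mean was 9.16 (limma adjusted p = 3.47e-19). The WEE1 probe set is of a type that may read several transcripts, as are the probe sets used for FBXO5 and CDC25A.

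PKMYT1, the membrane-bound kinase that restrains CDK1 alongside WEE1, had no called fall in any group. Its U2-OS arrays ran from 559 to 563 with DMSO, 549 to 562 with 25 nM, 576 to 612 with 100 nM and 585 to 633 with 400 nM. The U2-OS groups differed little, and the changes were 0.08 at 100 nM (95% interval -0.11 to 0.27) and 0.12 at 400 nM (-0.07 to 0.31). In SJSA-1 it read 280, 313 and 362 with DMSO and 385, 471 and 335.5 with 400 nM. Those groups overlapped, since the lowest array with 400 nM lay under the highest with DMSO. The rise of 0.30 (SE 0.09, limma adjusted p = 0.00597) ended without the second 400 nM array, at 0.17, and was 0.14 over the mean of its probe sets, not called. Spike-in centring turned it to -0.69, and to -0.39 with that array left out as well. Of its 6 probe sets 2 were called higher at 400 nM in each line and none lower, and 1 was called lower in U2-OS at 100 nM (-0.30).

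FBXO5, the inhibitor of the APC/C, also fell. U2-OS arrays read 494, 561 and 507 with DMSO, 494 to 510 with 25 nM, 391, 360 and 337 with 100 nM, and 48.6, 70.2 and 87.9 with 400 nM. The 100 nM arrays lay under every DMSO array and the 400 nM arrays lower still. The changes were -0.50 at 100 nM (SE 0.15, limma adjusted p = 0.00785) and -2.68 at 400 nM (SE 0.15, limma adjusted p = 4.49e-15), or 69.7% and 13.2% of the DMSO mean. SJSA-1 arrays read 458, 343 and 437 with DMSO, 380 to 516 with 25 nM, 163, 186 and 244 with 100 nM, and 13.2, 12.8 and 21.9 with 400 nM. Groups with 100 and 400 nM overlapped neither the DMSO group nor each other. The change at 100 nM was -1.01 (SE 0.15, limma adjusted p = 1.87e-06), and at 400 nM it was -3.75 (SE 0.15, limma adjusted p = 4.28e-18), the 2nd lowest of all genes tested. The FBXO5 mean in SJSA-1 went from 412 ± 61.5 to 15.95 ± 5.12 (SD, n = 3), which is 3.87% of its start and close to the filter.

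CDC25A, the phosphatase that acts at the entry into S phase as well as mitosis, fell at 400 nM in both lines. U2-OS arrays read 311, 322 and 327 with DMSO, 362, 395 and 380 with 25 nM, 349, 356 and 364 with 100 nM, and 48.0, 72.8 and 76.6 with 400 nM. The 25 and 100 nM arrays all lay above the DMSO arrays, with changes of 0.23 and 0.15 that were not called over all genes (limma adjusted p = 1 and 0.278). At 400 nM the change was -2.06 (SE 0.11, limma adjusted p = 2.67e-15), to 20.6% of the DMSO mean. SJSA-1 arrays read 214, 246 and 221 with DMSO, 195 to 212 with 25 nM, 64.4, 88.0 and 65.8 with 100 nM, and 25.3, 19.8 and 18.8 with 400 nM. No SJSA-1 group overlapped another, although the 25 nM arrays lay only just under the DMSO arrays. The changes were -1.46 at 100 nM (SE 0.11, limma adjusted p = 7.6e-12) and -2.71 at 400 nM (SE 0.11, limma adjusted p = 8.73e-18), or 32.1% and 9.39% of the DMSO mean. All 3 CDC25A probe sets were called lower in these 3 comparisons, from -0.78 to -2.16 in U2-OS at 400 nM, from -0.85 to -1.46 in SJSA-1 at 100 nM and from -1.12 to -2.71 there at 400 nM.

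CDC25B, the phosphatase thought to start CDK1 activation at the centrosome, moved in opposite directions in the 2 lines at 400 nM. U2-OS arrays read 288, 292 and 282 with DMSO, 283 to 304 with 25 nM, 257 to 285 with 100 nM, and 508, 501 and 526 with 400 nM. All 3 arrays with 400 nM lay above every other U2-OS array. The mean rose from 287 ± 4.64 to 512 ± 12.8 (SD, n = 3), a log2 change of 0.80 (SE 0.09, limma adjusted p = 8.29e-09), and 4 of 5 probe sets were called higher. With spike-in centring the change was 0.42 and no longer called, and over the mean of its probe sets it was 0.44. SJSA-1 arrays read 873, 1031 and 1003 with DMSO, 787, 685 and 843 with 25 nM, 481, 508 and 474 with 100 nM, and 541, 704 and 556 with 400 nM. The treated arrays all lay under the DMSO arrays, lowest at 100 nM. The changes were -0.96 at 100 nM (SE 0.09, limma adjusted p = 4.7e-10, 5 of 5 probe sets lower) and -0.68 at 400 nM (SE 0.09, limma adjusted p = 2.47e-07, 3 of 5 lower), and over the mean of its probe sets they were -0.56 and -0.34. Spike-in centring gave -1.46 and -1.69, the second -1.37 without the second array with 400 nM. The change of -0.32 at 25 nM (SE 0.09, limma adjusted p = 0.0203) was not called without the second 25 nM array (-0.24) or without the second (-0.28) or the third (-0.30) DMSO array. Spike-in centring (-0.41) and fits of the 12 arrays of the line or of the 2 groups (-0.32) ended that call too.

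CDC25C, the phosphatase of the G2 to M transition, fell in SJSA-1. It read 163, 186 and 191 with DMSO, 142 to 186 with 25 nM, 100, 98.4 and 88.0 with 100 nM, and 122, 124 and 115 with 400 nM. Groups with 100 and 400 nM lay under the DMSO group, and the 100 nM arrays lay under the 400 nM arrays. Log2 changes were -0.81 at 100 nM (SE 0.09, limma adjusted p = 1.62e-08) and -0.53 at 400 nM (SE 0.09, limma adjusted p = 1.83e-05), with both probe sets called lower at each dose. Spike-in centring gave -1.34 at 400 nM, and -1.03 without the second array with that dose. In U2-OS the arrays ran from 79.8 to 98.0 over all doses, and the change at 400 nM was 0.09 (95% interval -0.10 to 0.28, limma adjusted p = 0.375). The other CDC25C probe set was called lower in U2-OS at 100 nM (-0.36) and at 400 nM (-0.24).

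ATR, the kinase that responds to stalled replication forks, read 57.2, 63.1 and 57.5 in U2-OS with DMSO, 50.3 to 55.8 with 25 nM, 30.7, 36.6 and 27.9 with 100 nM, and 44.8, 57.1 and 59.8 with 400 nM. The 100 nM arrays lay under all other U2-OS arrays, and the 400 nM group overlapped DMSO. The change at 100 nM was -0.66 (SE 0.15, limma adjusted p = 0.000709), and at 400 nM it was -0.11 (95% interval -0.42 to 0.19). In SJSA-1 ATR read 74.0, 39.1 and 42.5 with DMSO, 27.5 to 46.5 with 25 nM, 22.6, 25.6 and 34.3 with 100 nM, and 21.4, 24.1 and 37.8 with 400 nM. The first DMSO array stood well above the others, and both higher doses lay under all of them. Changes were -0.61 at 100 nM (limma adjusted p = 0.00115) and -0.62 at 400 nM (limma adjusted p = 0.000851, SE 0.15 for both). Without the first DMSO array each was -0.39 and still called.

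ATM, the kinase that responds to double-strand breaks, read 64.7, 84.6 and 69.7 in U2-OS with DMSO and 46.0, 54.6 and 47.6 with 100 nM. These groups did not overlap, and the arrays with 25 nM (62.4 to 72.9) and 400 nM (58.5 to 66.5) overlapped DMSO. The fall at 100 nM was -0.44 (SE 0.10, limma adjusted p = 0.000975), and the mean over the ATM probe sets gave 0.06, not called. In SJSA-1 the arrays ran from 10.7 to 20.8 over all doses, around the filter, so that little signal was left in which a change could be measured. The ATM probe sets disagreed. A second one, tested like the first, rose from a mean of 19.0 to 45.2 in U2-OS with 100 nM (log2 change 0.81, SE 0.07, limma adjusted p = 5.46e-10) and from 15.8 to 49.3 in SJSA-1 with 100 nM (1.04, SE 0.07, limma adjusted p = 3.15e-12). Of the 4 ATM probe sets tested, 3 were called higher and none lower in U2-OS at 400 nM.

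CHEK1, the effector kinase of ATR, showed no called change against DMSO at any dose in either line, although spike-in centring gave called changes of -0.62 and -0.86 in SJSA-1 at 100 and 400 nM (the second -0.55 without the second array with 400 nM) and the mean of its probe sets one of -0.20 in U2-OS at 400 nM. Its arrays ran from 273 to 297 with DMSO and 251 to 301 with 400 nM in U2-OS, and from 152 to 170 and 152 to 182 in SJSA-1. At 400 nM the change was -0.06 in U2-OS (95% interval -0.23 to 0.12) and 0.04 in SJSA-1 (-0.14 to 0.21). Of its 6 probe sets 4 were called lower and 1 higher in U2-OS at 400 nM, from -0.65 to 0.41, and none was called in SJSA-1 at that dose. At 100 nM 1 was called higher in each line, as was 1 in SJSA-1 at 25 nM. The highest changes over its probe sets there were 0.35 in U2-OS at 100 nM, and 0.37 and 0.36 in SJSA-1 at 100 and 25 nM. CHEK2, the effector kinase of ATM, read 78.4, 80.2 and 78.4 in U2-OS with DMSO and 59.8, 72.0 and 67.0 with 400 nM, without overlap. Its fall of -0.21 (SE 0.09, limma adjusted p = 0.031) was not called once the first (-0.15) or the third (-0.22) 400 nM array, or any 1 DMSO array (-0.20 to -0.22), was left out. Its other probe set rose there by 0.50 (SE 0.07, limma adjusted p = 3.12e-07), and the mean of both gave 0.14. At 100 nM that other probe set was called higher in each line, by 0.20 in U2-OS and 0.19 in SJSA-1. In SJSA-1 CHEK2 read 77.7, 83.3 and 75.6 with DMSO and 105, 77.7 and 92.4 with 400 nM, which overlapped, with a change of 0.18 (SE 0.09, limma adjusted p = 0.0714). This result was not steady: the rise was called in 5 of 20 other settings, and spike-in centring turned it to a called -0.59. The highest value in those settings was 0.34. Probe sets used for CHEK2 and PKMYT1 are of a type that may cross-hybridise.

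**Figure D2:**
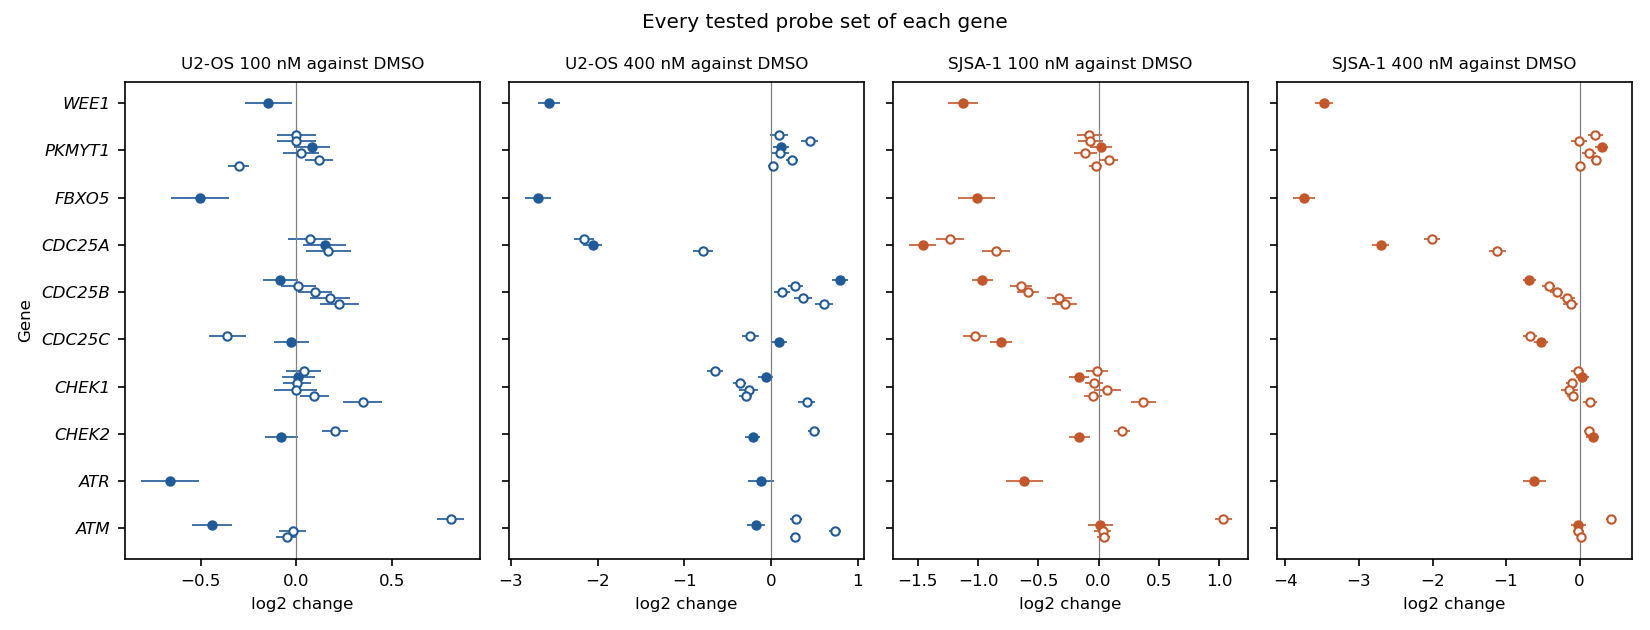
Log2 change against DMSO of every tested probe set of the 10 genes, with 1 panel for each line at 100 and 400 nM and bars of 1 SE. Filled points are the probe set with the highest mean, which stands for the gene in the text, open points are its other probe sets, and the axes differ in range. The 3 CDC25A probe sets fall together in 3 of the panels, while those of ATM, CHEK1 and CHEK2 lie on both sides of 0 in U2-OS at 400 nM.

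The dose steps show where in the range each transcript was lost. In U2-OS WEE1, FBXO5 and CDC25A changed by -2.41, -2.18 and -2.21 on the log2 scale between 100 and 400 nM (SE 0.12, 0.15 and 0.11, limma adjusted p = 1.82e-15, 8.7e-13 and 1.84e-15), a step that also changes the normalization set. Those 3 genes were lower and 3 others higher (CDC25B, ATR, ATM) in that step, against 20.3% lower and 44.4% higher over all genes. Median centring moved those counts from 7174 higher and 3281 lower to 5397 and 4130, and joint quantile normalization to 5285 and 4724. The ATM rise of 0.27 ended without the first (0.23) or the third (0.25) U2-OS array with 100 nM, or without the second (0.24) or the third (0.26) with 400 nM. Between 25 and 100 nM in U2-OS 3 genes fell (FBXO5, ATR, ATM) and none rose, against 23.3% and 24.8%. FBXO5 changed there by -0.46 (SE 0.15, limma adjusted p = 0.0138), a call that ended without the third 100 nM array, at -0.41. In SJSA-1 WEE1, FBXO5 and CDC25A fell in both steps, with changes of -1.26, -1.17 and -1.32 between 25 and 100 nM. Between 100 and 400 nM FBXO5 and CDC25A changed by -2.74 and -1.24 (-0.76 for CDC25A over the mean of its probe sets), and WEE1, under the filter at the end, was at least 8.88-fold lower. The largest limma adjusted p of those 6 steps was 1.89e-07. CDC25B (-0.64) and CDC25C (-0.65) also fell in the first step, so that 5 genes were lower and none higher, against 23.1% and 18.6% of all genes (3735 and 3001, or 3432 and 4619 with median centring). In the second SJSA-1 step 3 genes were lower and 4 higher (CDC25B 0.28, CDC25C 0.29, PKMYT1 0.28, CHEK2 0.34), against 11.7% and 14.9%. These 4 rises were not called when only the 12 SJSA-1 arrays were fitted, and spike-in centring turned them to -0.23, -0.13, -0.22 and -0.04. That turn rests on the second SJSA-1 array with 400 nM: with it left out as well they were 0.09, 0.18, 0.08 and 0.33, none called. Leaving out the second SJSA-1 array with 400 nM ended the rises of CDC25B (0.16), CDC25C (0.27) and PKMYT1 (0.16) and left 1 gene higher. Calls also ended for CDC25B without the first (0.27) or the third (0.26) array with 100 nM, for CDC25C without the third with 100 nM (0.24) or the first with 400 nM (0.28), and for PKMYT1 without the second with 100 nM (0.25). Leaving out the third array with 100 nM left 2 genes higher.

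SJSA-1 lost 4 of these transcripts more than U2-OS did at 100 nM: CDC25A (difference in log2 change -1.61, SE 0.16, limma adjusted p = 1.49e-08), WEE1 (-0.98, SE 0.17, limma adjusted p = 0.000122), CDC25B (-0.88, SE 0.13, limma adjusted p = 8.34e-06) and CDC25C (-0.79, SE 0.13, limma adjusted p = 5.02e-05). Over all genes the difference was called lower in SJSA-1 for 9.74% and higher for 7.15% (1576 and 1156, or 201 and 503 with spike-in centring). CDC25A lay among the lowest 0.117% of all genes in this difference. All 3 CDC25A, all 5 CDC25B and both CDC25C probe sets were called in that direction. With spike-in centring the differences were -0.90 for WEE1, -0.90 for CDC25B and -0.74 for CDC25C, no longer called, while that of CDC25A stayed called. FBXO5 differed by -0.51 (95% interval -0.94 to -0.08, limma adjusted p = 0.102), and was called without the third SJSA-1 array with 100 nM (-0.66) or the second SJSA-1 DMSO array (-0.63). ATM differed by 0.45 (SE 0.14, limma adjusted p = 0.0284). Its call ended without the third SJSA-1 array with 100 nM (0.35), the second (0.40) or the third (0.41) SJSA-1 DMSO array, the first (0.41) or the third (0.43) U2-OS array with 100 nM, or the second U2-OS DMSO array (0.36), and the mean of its probe sets gave 0.17. It also rests on SJSA-1 arrays near the filter.

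**Figure D3:**
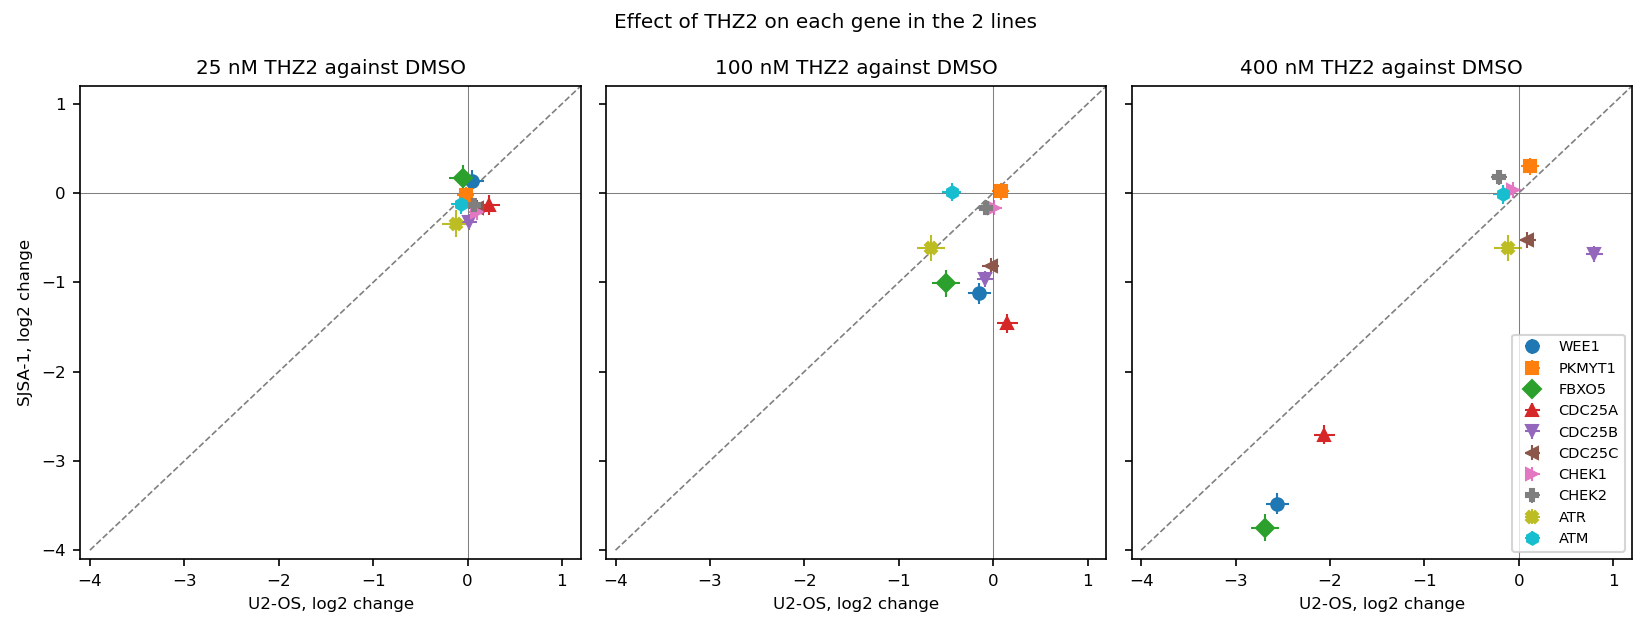
Log2 change against DMSO in SJSA-1 (vertical axis) and U2-OS (horizontal axis) for each of the 10 genes at 25, 100 and 400 nM THZ2, with bars of 1 SE. The dashed line marks equal changes. At 100 nM CDC25A, WEE1, CDC25B and CDC25C lie far under it with little change in U2-OS, and at 400 nM CDC25B has opposite signs in the lines.

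At 400 nM the effect of THZ2 differed between the lines for 6 of the genes, a comparison in which the U2-OS side carries its own normalization set. CDC25B differed most (-1.48, SE 0.13, limma adjusted p = 3.39e-10), and the difference was called under every setting run and in all 5 of its probe sets, with -0.78 over their mean. FBXO5 (-1.06, SE 0.21, limma adjusted p = 0.000165), WEE1 (-0.92, SE 0.17, limma adjusted p = 7.99e-05), CDC25A (-0.65, SE 0.16, limma adjusted p = 0.00135) and CDC25C (-0.62, SE 0.13, limma adjusted p = 0.000304) were also lower in SJSA-1, and CHEK2 was higher (0.39, SE 0.12, limma adjusted p = 0.011). Over all genes 31.4% were called lower in SJSA-1 and 14.5% higher. Those 5077 lower and 2349 higher became 2946 and 4237 with median centring and 3424 and 3955 with joint quantile normalization. The SJSA-1 arrays with 400 nM lie under the filter for WEE1, so the size of its difference depends on the amount added before the log: it was -0.07, not called, with 64 in place of 16, and -1.95 with 1. In intensities WEE1 was at least 20.9-fold lower in SJSA-1, and in U2-OS it stood at 14.9% of its DMSO mean. FBXO5, near the filter in SJSA-1, gave -0.42 with 64, still called, -1.70 with 1 and -0.70 with joint quantile normalization. CDC25A gave -0.20 with 64, and -0.44, -0.30 and -0.28 with spike-in centring, joint quantile normalization and the mean of its probe sets, none of them called. Of its 3 probe sets only 1 was called for this line difference, and they ranged from -0.65 to 0.15. Spike-in centring ended the calls of WEE1 (-0.45) and FBXO5 (-0.71) and took CHEK2 to -0.0031. Without the second SJSA-1 array with 400 nM as well, these were -0.36, -0.56 and 0.36, and CDC25A was -0.29, none called. For CDC25C spike-in centring gave -1.07, and -0.76 without that array. The mean of the CHEK2 probe sets gave 0.0089, with 1 of the 2 called lower (-0.37) and 1 higher (0.39). ATR differed by -0.50 (95% interval -0.93 to -0.07, limma adjusted p = 0.0506). At 25 nM no gene of the set differed between the lines by the adjusted limma p, while 0.915% of all genes were called lower and 0.179% higher. Unadjusted limma p-values there were under 0.05 for CDC25B (0.0125), CHEK1 (0.0146), CDC25A (0.026) and CDC25C (0.0495).

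WEE1, FBXO5 and CDC25A also followed each other over the arrays. After each line's mean was subtracted, Pearson's r of the log2 values over the 24 arrays was 0.990 between WEE1 and FBXO5, 0.977 between WEE1 and CDC25A, and 0.953 between CDC25A and FBXO5. These arrays share doses and normalization sets, so the values are a description. PKMYT1 ran the other way, with r of -0.69 with WEE1, and CHEK1 had r of -0.12 with WEE1. By this measure the most alike of all genes tested were GRPEL2 (0.995), AMMECR1L (0.994) and YTHDF1 (0.994) for WEE1, TEX10 (0.991), FASTKD3 (0.989) and MIEF1 (0.989) for CDC25A, and ZBTB11 (0.993), PITPNB (0.991) and WEE1 itself (0.990) for FBXO5. GRPEL2, a cochaperone of mitochondrial protein import, changed by -0.14 and -1.70 at 100 and 400 nM in U2-OS and by -0.60 and -2.27 in SJSA-1. YTHDF1, a reader of methylated adenosine in RNA, had the smallest change of these at 400 nM in U2-OS (-1.36), and MIEF1, a factor of mitochondrial fission, in SJSA-1 (-1.62).

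Around the 10 genes, CDK1 and its activators held more falls than rises. Of 17 genes 7 fell and 2 rose in U2-OS at 100 nM, 9 and 4 at 400 nM, 7 and 0 in SJSA-1 at 100 nM, and 10 and 2 at 400 nM. Their median changes were -0.14, -0.26, -0.16 and -0.66. The shares of all genes called lower and higher were 22.2% and 19.8% in U2-OS at 100 nM and 25% and 48.4% at 400 nM. In SJSA-1 these shares were 25.1% and 24.4% at 100 nM and 24.9% and 41.4% at 400 nM. MASTL, the Greatwall kinase that keeps CDK1 substrates phosphorylated, changed by -1.68 and -2.08 in U2-OS and by -2.04 and -1.74 in SJSA-1 at 100 and 400 nM (SE 0.12). BORA, the cofactor with which Aurora A activates PLK1, changed by -1.03, -2.16, -1.68 and -2.10 in the same order (SE 0.10). The falls of MASTL and BORA at 400 nM passed the limma test in both lines. Genes of each list were named for being called at 100 nM, so their calls at that dose are no test of them. ENSA, a substrate of MASTL, rose by 0.34 in U2-OS at 100 nM, but the mean of its probe sets gave -0.23 and spike-in centring -0.14.

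Partners of ATR and CHEK1 fell more often than they rose: of 15 genes 10 fell and 0 rose in U2-OS at 100 nM, 9 and 3 at 400 nM, 11 and 2 in SJSA-1 at 100 nM, and 9 and 3 at 400 nM, with medians of -0.35, -0.42, -0.53 and -0.38. In these comparisons 22.2% to 25.1% of all genes were called lower and 19.8% to 48.4% higher. CDC7, the kinase that fires replication origins, changed by -1.68 and -1.29 in U2-OS and by -1.50 and -1.29 in SJSA-1 (SE 0.12). RAD1, a subunit of the 9-1-1 clamp that helps activate ATR, changed by -0.99, -0.85, -1.29 and -0.93 (SE 0.09). Both passed the limma test at 400 nM in both lines, and being called at 100 nM was a condition of being named. TIMELESS, of the fork protection complex, rose in SJSA-1 at 100 nM (0.52, SE 0.09, limma adjusted p = 2.91e-05) and at 400 nM (0.58), where spike-in centring gave -0.29, though not below 0 without the second array with 400 nM.

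Of 14 partners of ATM and CHEK2, 6 fell and 2 rose in U2-OS at 100 nM, 6 and 3 at 400 nM, 10 and 1 in SJSA-1 at 100 nM, and 12 and 0 at 400 nM, with medians of -0.15, -0.18, -0.40 and -0.45. Of all genes 22.2% to 25.1% were called lower and 19.8% to 48.4% higher in the same comparisons. In SJSA-1 the mean of probe sets gave 6 lower at 100 nM and 9 at 400 nM, with medians of -0.15 and -0.24, and joint quantile normalization 8 lower and 1 higher at 400 nM, with a median of -0.31. UIMC1 (RAP80), which brings BRCA1 to breaks, fell in all 4 (-1.03, -1.30, -1.17 and -1.29, SE 0.09). BRCA1 changed in U2-OS by -1.32 at 100 nM (SE 0.10) and -0.48 at 400 nM, and in SJSA-1 by -0.73 and -0.42. TTI1, a chaperone cofactor of ATM and ATR, changed by -1.78 in SJSA-1 at 100 nM (SE 0.08, limma adjusted p = 1.21e-16) and by -1.33 at 400 nM. In U2-OS TTI1 changed by -0.79 and -1.10 at these doses, and all these falls of BRCA1 and TTI1 were called. BRCA1 was named for its call in U2-OS at 100 nM and TTI1 for its call in SJSA-1 at 100 nM. Those calls are therefore no test of them. PPM1D (WIP1), the phosphatase that shuts these kinases off, rose in U2-OS at 100 nM (0.70, SE 0.10) and fell at 400 nM in U2-OS (-1.06) and SJSA-1 (-1.69).

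Ligases and 14-3-3 proteins that act on WEE1 and CDC25 were mixed. As above, 22.2% to 25.1% of all genes were called lower and 19.8% to 48.4% higher at 100 and 400 nM. Of 15 measured genes of 16 in this list, 6 fell and 4 rose in U2-OS at 100 nM, 8 and 3 at 400 nM, 6 and 4 in SJSA-1 at 100 nM, and 6 and 5 at 400 nM. Medians were -0.09, -0.30, 0.02 and 0.07, and the last 2 lay below 0 with joint quantile normalization (-0.03 and -0.0036) and with spike-in centring (-0.51 and -0.99, the second -0.52 without the second array with 400 nM). The first was 0.0072 over the mean of probe sets. CUL1, the scaffold of the SCF ligases that mark WEE1 and CDC25A for destruction, changed by -1.15, -1.68, -1.54 and -1.48 in that order (SE 0.11). FBXW7, a substrate receptor of SCF ligases, rose in U2-OS at 100 nM (0.74, SE 0.13) and fell there at 400 nM (-0.62) and in SJSA-1 at 100 nM (-0.71) and 400 nM (-1.99). Subunits of the APC/C, which FBXO5 inhibits, were listed together with its coactivators, its E2 enzymes and FBXO43. Of 19 measured genes of 20 in this list, 9 fell and 2 rose in U2-OS at 100 nM, 6 and 8 at 400 nM, 11 and 2 in SJSA-1 at 100 nM, and 7 and 5 at 400 nM. Medians were -0.19, -0.06, -0.21 and -0.14, and over the mean of probe sets the first was -0.03 and the second 0.05. At 400 nM in U2-OS the count lay near the shares of all genes, 25% lower and 48.4% higher. Its direction turned with the scaling: 9 fell and 7 rose with median centring, 9 and 6 with joint quantile normalization, and 7 and 7 over the mean of probe sets. UBE2S, the enzyme that extends ubiquitin chains for the APC/C, changed by -0.48, -0.37, -0.80 and -0.68 (SE 0.10). ANAPC15 rose in U2-OS at 400 nM by 0.996 (SE 0.10, limma adjusted p = 6.91e-10). The count of each list is read against the shares of all genes given above, and spike-in centring left at most 1 gene higher in any of these 5 lists at 100 or 400 nM.

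**Figure D4:**
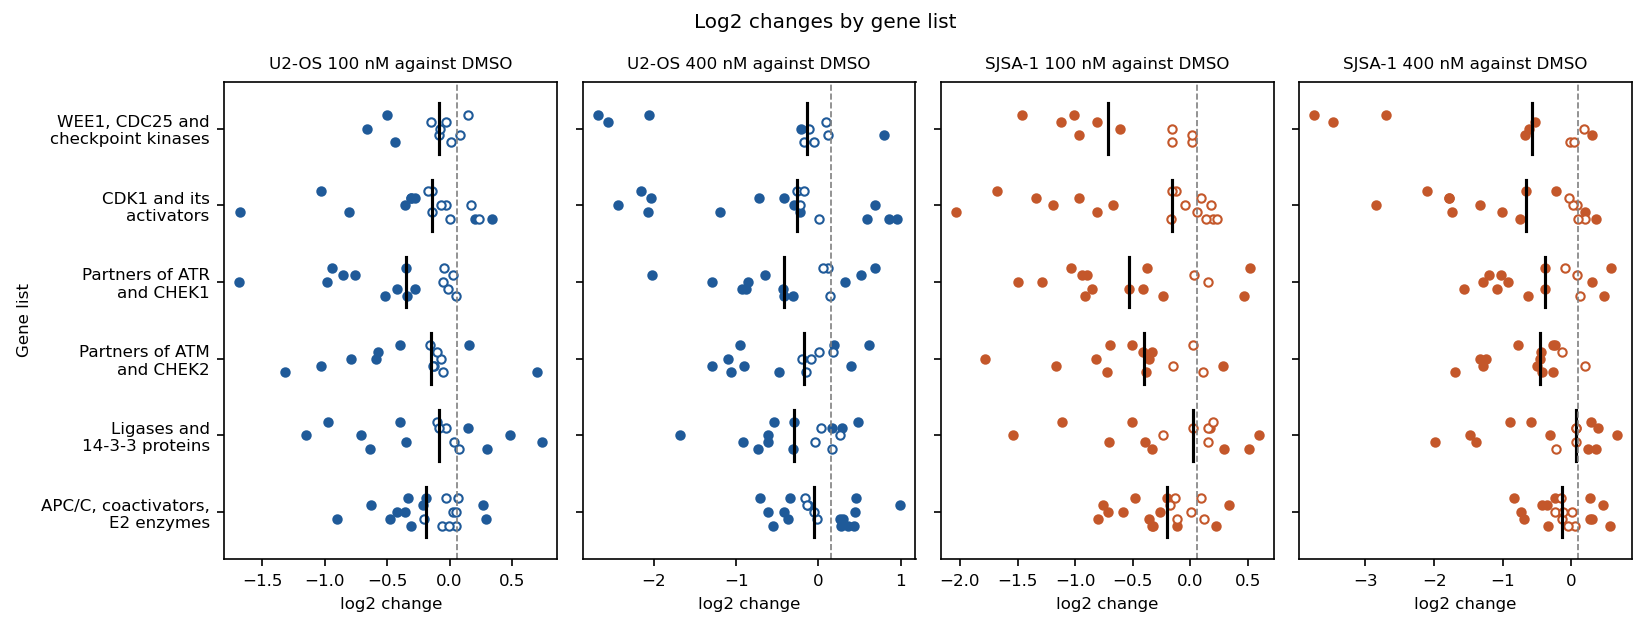
Log2 change against DMSO of the 10 genes and of the 5 pathway lists, with 1 panel for each line at 100 and 400 nM. Each point is a gene, filled where called by limma and open where not, black bars are list medians, dashed lines are the median over all genes tested, and the axes differ in range. The 10 genes in the top row have medians of -0.71 and -0.57 in SJSA-1 and -0.08 and -0.14 in U2-OS.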

How the data were processed

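Affymetrix PrimeView arrays of 24 RNA samples were analysed from 1 table of the whole series, in which the authors deposited an intensity on a linear scale for each probe set and array. The tools named per the submitters' processing notes are MAS5 and RMA. Which of them the authors used for these values, and the versions, are not given in the sources used here. Shared identical values divided the arrays into 3 sets, which were taken as normalized apart. For the SJSA-1 arrays, whose values are rounded to hundredths of the log2, such sharing cannot show a common normalization. No values were renormalized in the main analysis.

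Probe sets naming 1 gene (44988 of 49372) were used. For each gene the probe set of highest mean stood for it. A gene entered the tests if any group mean reached 12.73, the 30th percentile of all values, which kept 16175. The log2 of intensity plus 16 was fitted with limma 3.58.1 in R 4.3.3 (lmFit and eBayes with an intensity trend) over 8 group means with 16 residual degrees of freedom. The 13 contrasts were each dose against DMSO, the steps between doses and the differences between lines. Adjustment was by Benjamini-Hochberg within each contrast, with a threshold of 0.05. All probe sets naming 1 gene were also fitted one by one with the same filter. The script was tested on simulated data. An exact permutation test of 3 against 3 arrays cannot go below p = 0.1 (two-sided), so the model across genes was used. Adding 16 understates the change of dim genes.

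Same-numbered arrays did not deviate together throughout: their deviations correlated over 0.1 in 9 of 18 pairs in U2-OS (6 of 36 with different numbers) and in 8 of 18 in SJSA-1 (14 of 36). In the U2-OS step from 100 to 400 nM all 3 pairs did (0.33, 0.31 and 0.15). The fits reported have no block, and the block changed no call in that step. Levels in DMSO were not compared between lines. Named genes are the 10 members, from each list the genes with the largest falls (up to 2) and the largest rise (1) among those called at 100 nM in each line, and for WEE1, CDC25A and FBXO5 the 3 genes with the highest correlation, some of which are left out. The members and lists were chosen with earlier results of these data known. Alternatives covered the pseudocount, filter, scaling, probe sets, trend, arrays fitted, replicate block and each array left out.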

Additional observations from a re-analysis of the deposited data

Results flagged for a closer look

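The effect of THZ2 differed between the lines, by limma's test of the difference itself (SJSA-1 minus U2-OS, log2 scale), for these genes. At 100 nM it was -0.98 for WEE1, 0.45 for ATM, -1.61 for CDC25A, -0.88 for CDC25B and -0.79 for CDC25C. At 400 nM it was -0.92 for WEE1, 0.39 for CHEK2, -0.65 for CDC25A, -1.48 for CDC25B, -0.62 for CDC25C and -1.06 for FBXO5. The SJSA-1 arrays with 400 nM lie under the detection filter for WEE1, so its value there depends on the amount added before the log (-0.07 with 64 and -1.95 with 1). The dose of 400 nM and the normalization set cannot be told apart on the U2-OS side.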

How the results depend on the processing

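The calls of WEE1, FBXO5 and CDC25A against DMSO at 400 nM in both lines, and at 100 nM in SJSA-1, kept direction and threshold under all settings run. Over the 10 genes and all comparisons, 1534 of 1630 values kept their call, or their lack of one, under other settings. Another 42 became called, 40 ceased to be and 14 reversed. A value counted as reversed only if its sign turned and it was called in either fit. Values called in neither fit counted as kept, also where their sign turned. With 1 array left out 922 of 960 were kept by this rule, and none reversed. The causes were not tested. Fits of 1 line or 2 groups give no line difference, and leaving out the 3 U2-OS 400 nM arrays (chosen after seeing the data) gave the same calls.

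Counts of the 10 genes that moved, by setting, were as follows. Spike-in centring gave, in SJSA-1, 0 higher in the step from 100 to 400 nM, 0 higher and 10 lower at 400 nM and 0 lower at 25 nM. In U2-OS it gave 0 higher at 400 nM, 6 lower at 100 nM and 7 lower from 25 to 100 nM. For line differences it gave 1 lower at 100 nM, and 0 higher and 2 lower at 400 nM. With the second SJSA-1 array with 400 nM also left out (chosen after seeing the data), it gave 0 higher and 3 lower from 100 to 400 nM, 0 and 8 at 400 nM, and 0 and 2 for the line difference. The mean of probe sets gave 1 higher in SJSA-1 at 100 nM, 2 from 100 to 400 nM, 0 for the line difference at 400 nM, and 4 in U2-OS at 400 nM. Median centring gave 2 higher in SJSA-1 at 400 nM and 2 for the line difference there. Joint quantile normalization gave 2 and 3 for these, 0 higher for the line difference at 100 nM and 5 lower from 100 to 400 nM in U2-OS. A pseudocount of 1 gave 0 higher for the line difference at 100 nM, one of 64 gave 3 lower at 400 nM, and no intensity trend gave 2 higher in SJSA-1 at 400 nM. The 12 arrays of a line gave 0 higher from 100 to 400 nM and 0 lower at 25 nM in SJSA-1, and 2 higher in U2-OS at 400 nM. The 2 groups compared gave 0, 0 and 2 for these, 0 higher in SJSA-1 at 400 nM, 1 higher in U2-OS at 25 and at 100 nM, and 5 lower from 25 to 100 nM.

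Reversed values under spike-in centring lay in comparisons whose values it shifted down. For SJSA-1 from 100 to 400 nM they were CDC25B -0.23, CDC25C -0.13, CHEK2 -0.041 and PKMYT1 -0.22. For SJSA-1 at 400 nM they were CHEK1 -0.86, CHEK2 -0.59 and PKMYT1 -0.69, and for the line difference at 400 nM CHEK2 -0.0031. Without the second SJSA-1 array with 400 nM the only reversals were CHEK1 -0.55 and PKMYT1 -0.39 at 400 nM. Under the mean of probe sets they were, in U2-OS, ATM 0.038 (25 to 100 nM), 0.061 (100 nM) and 0.20 (400 nM) and CHEK2 0.14 (400 nM). With 1 array left out, 1 to 5 genes were higher in SJSA-1 from 100 to 400 nM, 0 to 1 and 1 to 2 were higher for the line difference at 100 and 400 nM, and 0 to 1 were lower in SJSA-1 at 25 nM.

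The replicate block moved no count by over 1.5 times. With it the ATR line difference at 400 nM (-0.50, limma adjusted p = 0.038) was called, and it changed no other call against DMSO, between doses or between lines. WEE1 and ATM in SJSA-1 near the filter of 12.73 limit what signal over background can show.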
